A study of Mus musculus with 12 samples.

Results

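The genes described here carry the insulin signal in fat cells: the insulin and IGF1 receptor genes Insr and Igf1r, the adaptor genes Irs1, Irs2 and Grb10, the phosphatidylinositol 3-kinase (PI3K) subunit gene Pik3r1, the kinase genes Akt1 and Akt2, the transcription factor gene Foxo1 and the glucose transporter gene Slc2a4, which encodes GLUT4. Their probe sets were those with 1 of these 10 symbols, and no other, in the platform annotation. This gave 30 of the 45037 probe sets of the array that are not controls, and 10 of 18193 genes. A probe set was tested where at least 3 of 12 arrays reached a log2 signal of 5.77, the median of all values, which 24 of the 30 did. The 24 cover 9 of the 10 genes. Grb10 had no tested probe set.

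The 12 arrays, 3 in each of 4 groups, measured RNA of 3T3-L1 cells, a mouse fibroblast line that can be turned into adipocytes in culture. The groups were DMSO, the solvent control, and berberine, an isoquinoline alkaloid of plants, at 5 µM for 3, 6 or 12 h. All groups shared the differentiation, with 5 µg/ml insulin, 1 µM dexamethasone and the phosphodiesterase inhibitor IBMX at 0.5 mM for 48 h, and then a maintenance medium with 10% fetal serum and 5 µg/ml insulin. All were used 8 to 10 days after differentiation and spent 12 h in DMEM with 0.2% albumin before treatment, and whether insulin was present then is not stated. The question in the labels is which transcripts change under berberine. The labels do not give how long DMSO was applied, so berberine and time in culture cannot be told apart. They also do not say whether the arrays of a group came from separate cultures, so the p-values rest on a spread between samples that may be technical.

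Insulin binds its receptor, a tyrosine kinase, which phosphorylates the IRS adaptors. These dock PI3K, whose lipid product brings AKT to the plasma membrane, where it is activated. In fat cells AKT2 then releases vesicles that carry GLUT4 to the surface, while AKT holds FOXO1 out of the nucleus. The amount of each transcript was measured here, and neither protein nor phosphorylation.

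Over the whole series, arrays correlated at 0.96 to 0.968 within groups and 0.95 to 0.966 between groups across tested probe sets, which are not independent replicates. The labelled cell type was checked on marker genes. Of the 10 adipocyte markers on the array, 9 had mean signals over the threshold at 12 h of berberine and all 10 with DMSO, as Lep averaged 4.92 at 12 h and 6.97 with DMSO. Of the 10 adipocyte markers, 3 rose and 2 fell at 6 h (median log2 change 0.07), and 1 rose and 5 fell at 12 h (median -0.29). All 7 fibroblast markers were over the threshold in every group, of which 1 rose and 2 fell at 6 h (median 0.23), and 2 rose and 2 fell at 12 h (median 0.08). No marker of either list was called at 3 h. Of 12136 genes, each read from its brightest tested probe set, 6.3% rose and 6.1% fell at 6 h (median 0.01), and 12.8% rose and 13.7% fell at 12 h (median -0.01). The summed linear signal of the adipocyte markers was 192275 to 211684 at 12 h and 181202 to 227475 with DMSO, and that of the fibroblast markers 88753 to 97427 at 12 h and 75568 to 87969 with DMSO. Of 5 macrophage markers, Adgre1, Ptprc and Itgam had means under the threshold in all 4 groups, while Cd68 and Csf1r had means over it in every group, the brighter at 7.1 to 7.45, and neither was called at any time. The summed linear signal of the 5 was 256 to 313 at 12 h and 260 to 293 with DMSO. The part of these shifts in the results below was not tested. In a culture measured in bulk, fewer cells of a type and less RNA per cell cannot be told apart.

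After 3 h of berberine no change among the 24 probe sets passed the test. At 6 h Irs1, Irs2, Pik3r1, Foxo1 and Slc2a4 were lower than with DMSO, and at 12 h Irs1, Irs2, Pik3r1, Akt2 and Foxo1 were. The 6 h calls of Foxo1 and Slc2a4 came from a probe set other than the brightest of the gene. In a fit without an intensity trend, described below, only Irs2 kept its 6 h call. No tested probe set of the receptors Insr and Igf1r or of Akt1 passed the test at any time, and no rise among the 24 tested probe sets passed it. The falls ran between 1.24-fold and 1.97-fold, apart from a dim Akt2 probe set given below as a bound.

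In numbers, 0 of 24 probe sets were called at 3 h by limma (adjusted p under 0.05), where 0.998% of all tested probe sets were (0.631% higher and 0.367% lower), and 0 of 24 had an unadjusted p under 0.05. At 6 h, 5 of 24 fell and 0 rose, where 5.18% of all 25053 tested probe sets fell, 5.3% rose and 10.5% changed either way. At 12 h, 9 of 24 fell and 0 rose, where 11.8% fell, 11.5% rose and 23.3% changed either way. The median log2 change of the 24 was -0.03 at 3 h, -0.26 at 6 h and -0.31 at 12 h, and that of all tested probe sets was 0.02, 0.01 and 0.01 at these times. At 12 h, the 3 arrays lay below all 3 DMSO arrays for 10 of the 24, and 17.9% of all tested probe sets did so. At 6 h this held for 8 of 24, with 13% of all, and at 3 h for 2 of 24, with 7.57% of all. Probe sets of a gene read transcripts of the same gene and are not independent. Read from its brightest tested probe set alone, 3 of the 9 genes fell at 6 h and 5 at 12 h, where 6.1% and 13.7% of 12136 genes did. The 3 berberine times were set against the same 3 DMSO arrays.

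**Figure D1:**
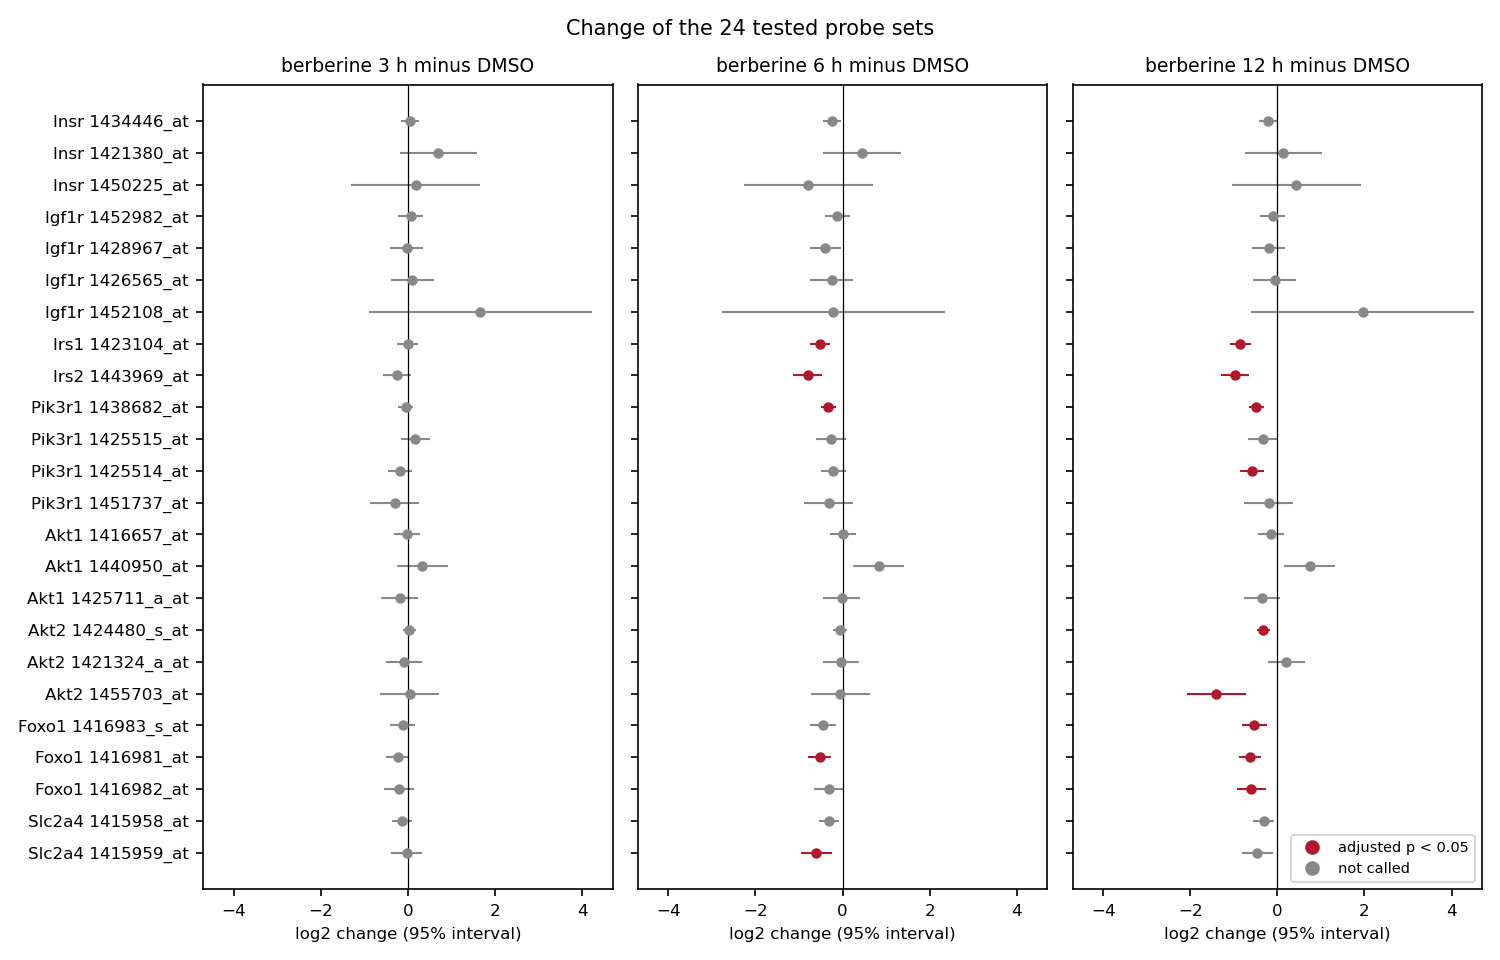
Log2 change (x axis, berberine minus DMSO) of the 24 tested probe sets, 1 row each, at 3, 6 and 12 h of berberine from left to right. Points are the estimates, bars their 95% intervals, and red marks an adjusted p under 0.05: 0 probe sets at 3 h, 5 at 6 h and 9 at 12 h, all to the left of 0.

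The insulin receptor gene Insr was read by a bright probe set, 1434446_at, and 2 near the threshold. The log2 signals of 1434446_at were 10.64, 10.87 and 10.99 with DMSO, 10.77, 10.85 and 11.03 at 3 h, 10.55, 10.74 and 10.49 at 6 h, and 10.72, 10.56 and 10.56 at 12 h. The 6 and 12 h arrays lay in the lower range but overlapped DMSO, whose lowest array was 10.64. The log2 change was -0.24 at 6 h (95% interval -0.45 to -0.03, adjusted p = 0.146) and -0.22 at 12 h (-0.43 to -0.01, adjusted p = 0.12). Neither passed the threshold. The 12 h value passed in 1 of 21 alternatives, without DMSO replicate 1 (adjusted p = 0.0366). Over the alternatives the 12 h log2 change ran from -0.32 to 0.12, with an adjusted p of up to 0.805. This range includes the mean of all tested Insr probe sets, taken in place of 1434446_at. The dimmer probe sets in that mean stood at 0.14 and 0.44 at 12 h, so its upper end is not a value of 1434446_at alone. The other 2 probe sets, 1421380_at and 1450225_at, had group means of 4.92 to 6.20 and wide intervals, and add little on the direction.

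Igf1r encodes the receptor for IGF1, which binds insulin with lower affinity. Its brightest probe set, 1452982_at, gave 9.02, 9.38 and 9.19 with DMSO, 9.28, 9.29 and 9.21 at 3 h, 9.27, 9.22 and 8.72 at 6 h, and 9.15, 9.15 and 8.96 at 12 h. All berberine groups overlapped DMSO. The log2 change was -0.13 at 6 h (-0.41 to 0.16) and -0.11 at 12 h (-0.39 to 0.18). A second probe set, 1428967_at, had a log2 change of -0.40 at 6 h (adjusted p = 0.175) and -0.20 at 12 h (adjusted p = 0.468). The probe set 1426565_at had -0.25 (-0.75 to 0.24) and -0.06 (-0.55 to 0.44) at these times. The dimmest tested one, 1452108_at, ranged from 0.93 to 6.12 over the 12 arrays and bounds little, and 1446303_at was too dim to be tested.

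Irs1 and Irs2 encode the adaptors that the insulin receptor phosphorylates first, and at 12 h they showed the largest falls of the 10 genes, apart from a dim Akt2 probe set. Of the member genes with a promoter in the RefSeq table, these were the only ones whose 250 bases before the start held the letters CACGTG, the E-box, on which transcription factors such as USF and MYC can bind. The windows are given here for that shared element, from RefSeq, assembly GRCm38.p6, 5′ to 3′ on the gene's strand, with the E-box in capitals. Irs1 lies on the minus strand at chr1:82291440-82291689, its E-box 115 to 110 bases before the start, and Irs2 on the minus strand at chr8:11008930-11009179, its E-box 44 to 39 bases before the start.
Irs1: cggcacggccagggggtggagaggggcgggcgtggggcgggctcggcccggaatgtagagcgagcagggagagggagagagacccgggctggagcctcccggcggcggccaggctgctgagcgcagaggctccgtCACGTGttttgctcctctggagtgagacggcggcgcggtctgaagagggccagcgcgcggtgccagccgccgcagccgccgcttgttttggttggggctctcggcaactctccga
Irs2: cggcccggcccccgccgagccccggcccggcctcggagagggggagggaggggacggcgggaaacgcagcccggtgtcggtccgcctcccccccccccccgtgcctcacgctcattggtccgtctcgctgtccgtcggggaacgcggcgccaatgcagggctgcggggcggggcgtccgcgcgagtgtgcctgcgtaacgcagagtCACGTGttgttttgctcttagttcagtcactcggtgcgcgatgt
Both strands were searched, and CACGTG reads the same on both. The element stands in 6.02% of the 32817 promoter windows of the table, so a match is common and says nothing of what binds there. Entries were found for 8 of the 10 genes, 14 windows in all, with none for Insr and Slc2a4. The GC box GGGCGG was in 8 of the 14 windows, Irs1 and Irs2 included, against 32.7% of all windows. The FOXO motif TGTTTAC was in 1 window of Akt1 (3.16% of all windows), TGATGNAAN, the C/EBP-ATF response element, in 1 window of Akt2 (3.44%), and the cAMP response element TGACGTCA in none of the 14 (1.55%).

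The Irs1 probe set, 1423104_at, gave 12.14, 12.01 and 12.49 with DMSO, 12.24, 12.12 and 12.27 at 3 h, 11.89, 11.72 and 11.47 at 6 h, and 11.22, 11.45 and 11.42 at 12 h. At 3 h the arrays lay within the DMSO range, and at 6 and 12 h all 6 arrays lay below every DMSO array. Irs1 averaged 11.69 ± 0.21 at 6 h and 12.21 ± 0.25 with DMSO (SD, n = 3 each), a 1.44-fold fall (log2 change -0.52 ± 0.11 SE, limma adjusted p = 0.00777). At 12 h it averaged 11.36 ± 0.12, a 1.80-fold fall (log2 change -0.85 ± 0.11 SE, adjusted p = 4.32e-05). Set against 3 h, Irs1 was lower at 6 h (log2 change -0.52, adjusted p = 0.0351) and at 12 h (-0.85, adjusted p = 8.9e-05). The 6 h call against 3 h was lost in 7 of 21 alternatives, among them without any 1 of the 3 h arrays (adjusted p = 0.113, 0.0747 and 0.132), 6 h replicate 2 (0.0979) or 6 h replicate 3 (0.145). Between 12 and 6 h the log2 change was -0.33 (-0.57 to -0.08, adjusted p = 0.138). The 6 h call against DMSO was lost without the intensity trend (adjusted p = 0.0684).

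Irs2 also codes for an IRS adaptor, and in liver its gene is turned on by FOXO1. The probe set 1443969_at gave 9.27, 9.04 and 9.10 with DMSO, 8.66, 8.91 and 9.13 at 3 h, 8.06, 8.66 and 8.29 at 6 h, and 8.29, 8.14 and 8.06 at 12 h. The 3 h arrays overlapped DMSO, and the 6 and 12 h arrays lay below all DMSO arrays. The log2 change was -0.24 at 3 h (-0.57 to 0.08, adjusted p = 0.58). Irs2 was 1.74-fold lower at 6 h (log2 change -0.80 ± 0.15 SE, adjusted p = 0.00312) and 1.97-fold lower at 12 h (-0.98 ± 0.15 SE, adjusted p = 0.000188). At 12 h it was also 1.66-fold lower than at 3 h (-0.74, adjusted p = 0.00361). Between 12 and 6 h the log2 change was -0.18 (-0.50 to 0.15), so no further fall was detectable. Calls of Irs2 at 6 and 12 h against DMSO held in all 21 alternative settings.

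Grb10 encodes an adaptor that binds the insulin receptor and dampens its signal. Its 3 probe sets were too dim to be tested. The brightest, 1425458_a_at, gave 5.51, 5.51 and 5.24 with DMSO, 5.13, 5.03 and 5.70 at 3 h, 5.13, 4.82 and 5.75 at 6 h, and 5.66, 4.47 and 5.50 at 12 h. All 12 arrays were below 5.77, so no level or direction can be read from them. Of the other 2, 1430164_a_at gave 5.68, 5.74 and 6.08 at 12 h and 4.60, 5.06 and 5.02 with DMSO, and reached the threshold only on 12 h replicate 3, and 1425457_a_at on no array.

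**Figure D2:**
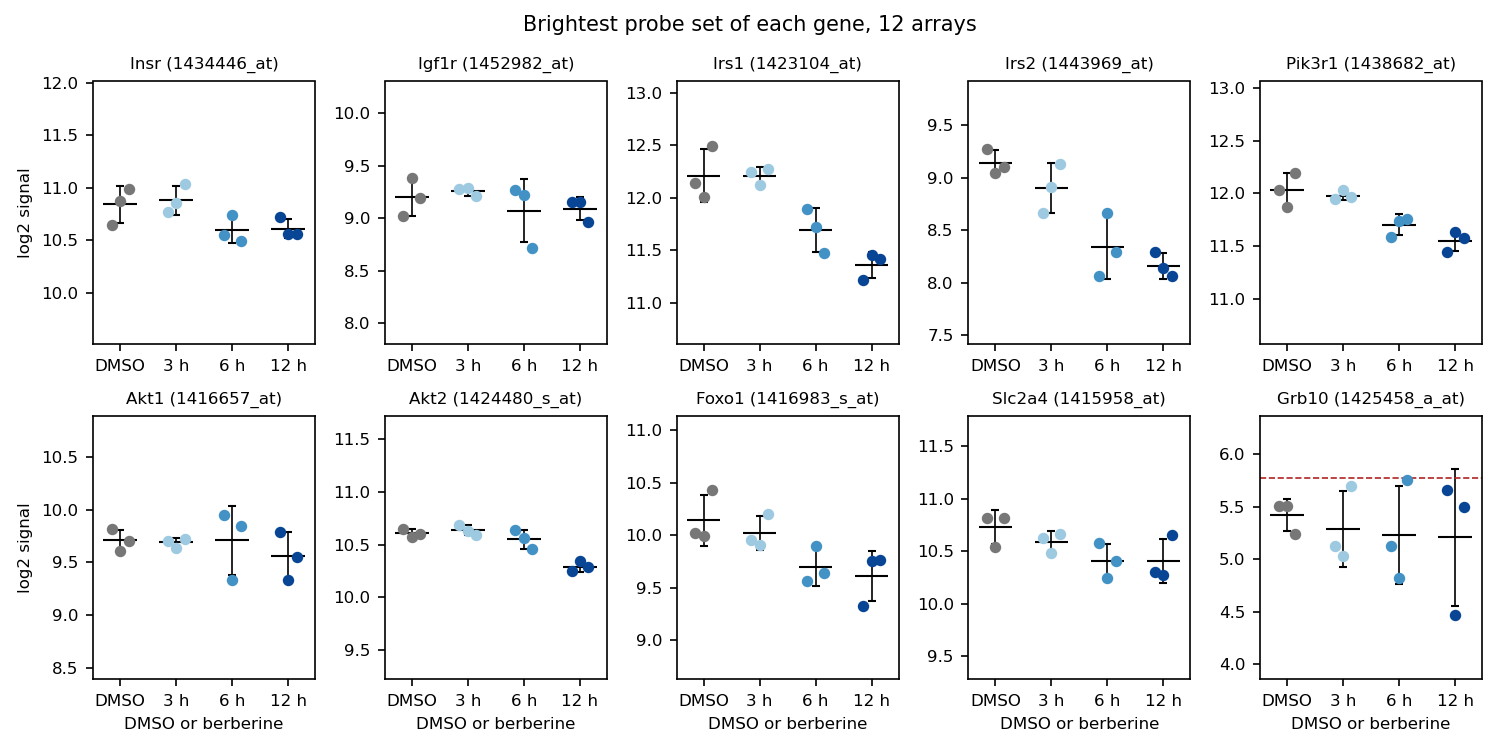
Log2 signal (y axis, each panel spanning the same 2.5 log2 units) of the brightest probe set of each gene in DMSO and at 3, 6 and 12 h of 5 µM berberine. Points are arrays, lines the mean and bars the SD of 3 arrays. The dashed red line in the Grb10 panel is the threshold of 5.77. The Irs1, Irs2, Pik3r1 and Foxo1 points at 6 and 12 h, and the Akt2 points at 12 h, lie below all DMSO points.

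Pik3r1 encodes the p85 subunit through which PI3K docks on IRS proteins. Its brightest probe set, 1438682_at, gave 12.03, 11.87 and 12.19 with DMSO, 11.95, 12.03 and 11.97 at 3 h, 11.59, 11.74 and 11.76 at 6 h, and 11.44, 11.63 and 11.58 at 12 h. The 3 h arrays lay among the DMSO arrays, and the 6 and 12 h arrays below all of them. Pik3r1 was 1.26-fold lower at 6 h (log2 change -0.33 ± 0.08 SE, adjusted p = 0.0136) and 1.40-fold lower at 12 h (-0.48 ± 0.08 SE, adjusted p = 0.000332). The 12 h value was also lower than at 3 h (-0.43, adjusted p = 0.00145). The 6 h call was lost without the intensity trend (adjusted p = 0.0758), without DMSO replicate 3 (0.0617) and without 6 h replicate 1 (0.0611).

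A second Pik3r1 probe set, 1425514_at, gave 8.76, 8.33 and 8.74 at 12 h and 9.23, 9.21 and 9.12 with DMSO, with no overlap, a log2 change of -0.57 (adjusted p = 0.00404). Another, 1425515_at, had log2 changes of -0.26 at 6 h (adjusted p = 0.347) and -0.33 at 12 h (adjusted p = 0.153), and fell at 12 h relative to 3 h (-0.50, adjusted p = 0.0475). That last call was lost in 11 of 19 alternatives, with an adjusted p of up to 0.226 without 12 h replicate 1 and 0.135 without 3 h replicate 3. The dimmest tested one, 1451737_at, had log2 changes of -0.32 at 6 h (-0.88 to 0.25) and -0.19 at 12 h (-0.76 to 0.37), so its intervals cover the values of the other 3.

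Akt1 and Akt2 encode the kinases downstream of PI3K, of which AKT2 is the form most tied to glucose uptake in fat. The brightest Akt1 probe set, 1416657_at, gave 9.82, 9.61 and 9.70 with DMSO, 9.70, 9.64 and 9.72 at 3 h, 9.95, 9.33 and 9.85 at 6 h, and 9.79, 9.33 and 9.55 at 12 h. The groups overlapped at every time, with a log2 change of -0.15 at 12 h (-0.45 to 0.15). The probe set 1440950_at leaned the other way, with 8.12, 7.40 and 7.76 at 6 h and 7.46, 7.41 and 8.14 at 12 h against 6.88, 6.43 and 7.47 with DMSO. Its log2 changes of 0.83 at 6 h (0.25 to 1.41, adjusted p = 0.0644) and 0.74 at 12 h (0.16 to 1.32, adjusted p = 0.0622) did not pass. Each passed in 3 of 19 alternatives, among them without DMSO replicate 3, the array at 7.47 (adjusted p = 0.0207 and 0.0157). In the other alternatives the adjusted p reached 0.237 at 6 h and 0.258 at 12 h. The other tested one, 1425711_a_at, had a log2 change of -0.36 at 12 h (adjusted p = 0.224), and 1442759_at was too dim to be tested.

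The brightest Akt2 probe set, 1424480_s_at, has the suffix that Affymetrix gives where probes can match more than 1 transcript. It gave 10.65, 10.57 and 10.60 with DMSO, 10.69, 10.63 and 10.59 at 3 h, 10.64, 10.56 and 10.46 at 6 h, and 10.25, 10.34 and 10.29 at 12 h. At 3 and 6 h the arrays overlapped DMSO, and at 12 h all 3 lay below every other array of the series. Akt2 averaged 10.29 ± 0.05 at 12 h and 10.61 ± 0.04 with DMSO (SD, n = 3 each), a 1.24-fold fall (log2 change -0.32 ± 0.07 SE, adjusted p = 0.00369). It was also lower at 12 h than at 3 h (-0.34, adjusted p = 0.00324), while the change from 6 h did not pass (-0.26, -0.41 to -0.11, adjusted p = 0.0538). At 6 h the log2 change from DMSO was -0.06 (-0.21 to 0.09).

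A dim Akt2 probe set, 1455703_at, gave 6.85, 7.48 and 6.90 with DMSO, 7.19, 7.33 and 6.85 at 3 h, 6.92, 7.18 and 6.96 at 6 h, and 5.20, 5.35 and 6.49 at 12 h. Of the 12 h arrays only replicate 3 reached the threshold, and all 3 lay below the other 9. With signals below the threshold set to it, the mean signal was at least 2.09-fold lower at 12 h than with DMSO. In the same way it was at least 2.16-fold lower at 12 h than at 3 h and at least 2.01-fold lower than at 6 h. These folds are bounds on the difference of the means and have no interval. The limma fit to the signals as deposited gave adjusted p = 0.0041, 0.0055 and 0.0261 for these comparisons in turn. The comparison with 6 h lost its call in 7 of 18 alternatives, among them without any 1 of the 6 h arrays (0.0628, 0.101 and 0.0628) or without 12 h replicate 1 (0.0958) or 2 (0.0963). The remaining Akt2 probe set, 1421324_a_at, gave 8.29, 7.85 and 8.76 at 12 h and 7.91, 8.43 and 7.94 with DMSO (log2 change 0.21, -0.21 to 0.63). Of the 3 tested Akt2 probe sets, 2 thus fell at 12 h and 1 was not called.

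Foxo1 encodes the transcription factor that AKT phosphorylates and keeps from the nucleus. Its brightest probe set, 1416983_s_at, again with that suffix, gave 10.02, 9.99 and 10.43 with DMSO, 9.95, 9.91 and 10.20 at 3 h, 9.56, 9.90 and 9.64 at 6 h, and 9.33, 9.75 and 9.76 at 12 h. The 3 h arrays overlapped DMSO, and at 6 and 12 h all lay below it. It was 1.45-fold lower at 12 h (log2 change -0.53 ± 0.14 SE, adjusted p = 0.00993). At 6 h its log2 change of -0.44 missed the threshold (-0.74 to -0.15, adjusted p = 0.0517), which it passed in 7 of 21 alternatives. The 12 h call was lost without the intensity trend (0.0536), without DMSO replicate 3 (0.0584) and without 12 h replicate 1 (0.0596).

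A second Foxo1 probe set, 1416981_at, gave 9.76, 9.74 and 9.75 with DMSO, 9.40, 9.44 and 9.71 at 3 h, 9.42, 9.31 and 8.94 at 6 h, and 9.27, 9.12 and 8.96 at 12 h. All 9 berberine arrays lay below the 3 DMSO arrays, and the log2 change was -0.23 at 3 h (-0.50 to 0.03, adjusted p = 0.485), -0.53 at 6 h (adjusted p = 0.0114) and -0.63 at 12 h (adjusted p = 0.00127). It was also lower at 12 h than at 3 h (-0.40, adjusted p = 0.0421), a call lost in 10 of 19 alternatives, with an adjusted p of up to 0.185 without 3 h replicate 3 and 0.155 without 12 h replicate 3. The 6 h call was lost without the intensity trend (0.0555) and without 6 h replicate 3 (0.0563). Another, 1416982_at, fell at 12 h (-0.60, adjusted p = 0.0118), which was lost without DMSO replicate 3 (0.0626) or 12 h replicate 1 (0.0665). At 12 h all 3 tested Foxo1 probe sets had thus fallen, by 0.53 to 0.63 on the log2 scale. The remaining one, 1456529_at, was too dim to be tested.

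Slc2a4 encodes GLUT4, the transporter that insulin brings to the cell surface. Its brighter probe set, 1415958_at, gave 10.82, 10.54 and 10.82 with DMSO, 10.63, 10.48 and 10.67 at 3 h, 10.58, 10.25 and 10.41 at 6 h, and 10.30, 10.28 and 10.66 at 12 h. The 6 and 12 h arrays were mostly lower but overlapped the DMSO array at 10.54. Its log2 change was -0.31 at 6 h (-0.55 to -0.08, adjusted p = 0.0883) and -0.31 at 12 h (-0.55 to -0.08, adjusted p = 0.0519), neither past the threshold. The 12 h value passed in 8 of 21 alternatives, with adjusted p of 0.0195 without DMSO replicate 2 and 0.00951 without 12 h replicate 3.

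The dimmer Slc2a4 probe set, 1415959_at, gave 9.16, 8.58 and 8.67 with DMSO, 8.83, 8.68 and 8.79 at 3 h, 8.43, 8.18 and 7.99 at 6 h, and 8.37, 8.08 and 8.59 at 12 h. At 6 h no array overlapped DMSO, and at 12 h the array at 8.59 did. It was 1.51-fold lower at 6 h (log2 change -0.60 ± 0.17 SE, adjusted p = 0.0287) and had a log2 change of -0.46 at 12 h (-0.81 to -0.10, adjusted p = 0.0577). The 6 h call was lost in 5 of 19 alternatives, without DMSO replicate 1 (adjusted p = 0.158), without 6 h replicate 2 (0.0832), without 6 h replicate 3 (0.116), without the intensity trend (0.0907) and with only the 2 groups fitted (0.0526).

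Over the 4 groups together, the moderated F test called 9 of the 24 probe sets, where 19.4% of all tested probe sets were called. They were those of Irs1 and Irs2, 2 each of Pik3r1, Akt2 and Foxo1, and 1415959_at of Slc2a4. Between berberine times, which share no DMSO array, 7 of 24 were lower at 12 h than at 3 h (7.65% of all tested were), 1 at 6 h than at 3 h (0.782%) and 1 at 12 h than at 6 h (2.12%). None of the 24 was called higher in any of these pairs, where 6.04%, 0.651% and 1.66% of all tested were.

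For the 5 genes whose brightest tested probe set passed the F test (that of Slc2a4, 1415958_at, did not, with an adjusted p of 0.119), the genes most like each in pattern were found by the root mean square difference of centred log2 signals over the 12 arrays. For Irs1 these were Fgfr2 at 0.091, Bbs10 at 0.108 and Adamts9 at 0.129. For Irs2 they were Jade2 at 0.129, Rreb1 at 0.147 and Parp16 at 0.162. Irs1 and Irs2 differed from each other by 0.268. Pik3r1 was nearest Ndufaf1 (0.062), Aifm1 (0.064) and Ints2 (0.066), and Akt2 nearest Ldhb (0.047), Mcat (0.057) and Slc25a11 (0.058). Foxo1 was nearest Aifm1 (0.122), Mypop (0.125) and Ankrd13c (0.128), and its distance to Pik3r1 was 0.132.

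**Figure D3:**
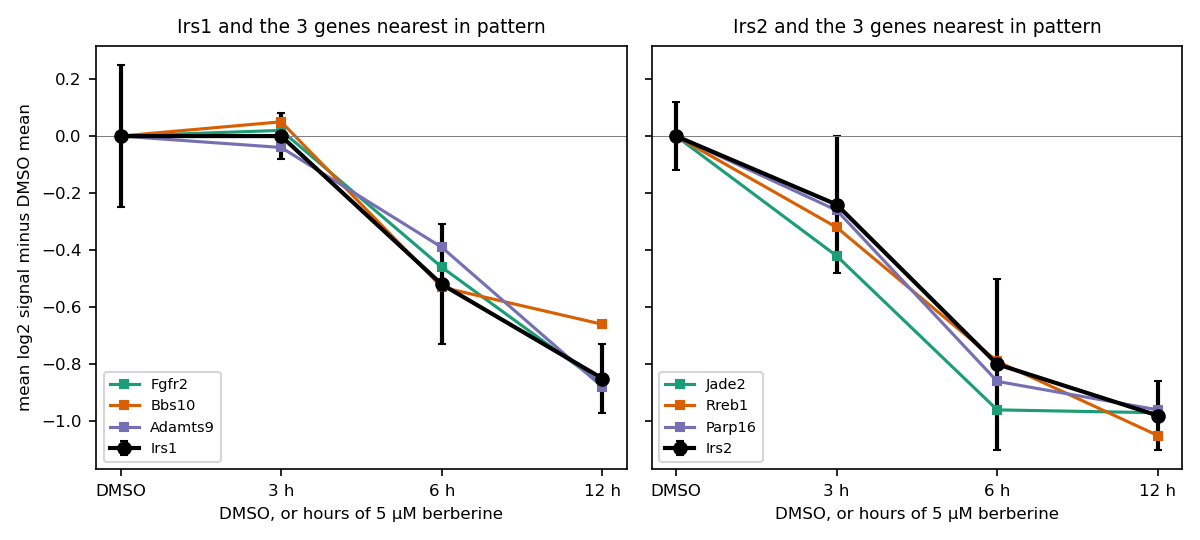
Mean log2 signal minus the DMSO mean (y axis) of Irs1 (left) and Irs2 (right), in black with the SD of 3 arrays as bars, and of the 3 genes nearest in pattern, in DMSO and at 3, 6 and 12 h of berberine. Irs1 stood at 0 at 3 h and at -0.85 at 12 h, and Irs2 at -0.24 and -0.98.

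Among 126 other tested genes of the pathway, listed by role, 5 rose and 4 fell at 3 h, 17 rose and 24 fell at 6 h, and 18 rose and 29 fell at 12 h. Of 12136 genes read the same way, 0.816% rose and 0.527% fell at 3 h, 6.3% and 6.1% at 6 h, and 12.8% and 13.7% at 12 h. Changes ran both ways in most roles. Of the 8 ligands, binding proteins and receptors, 1 fell at 12 h and none rose: the growth factor gene Igf1, by a log2 change of -0.90 (adjusted p = 0.000359), with groups that did not overlap. Of its 3 other tested probe sets, 1 also fell, by a log2 change of -1.0 (adjusted p = 2.44e-05), and the others stood at -0.27 and 0.10 and were not called, so 2 of 4 Igf1 probe sets fell. Of 14 adaptors, 2 rose and 1 fell at 12 h, and 2 rose and 2 fell at 6 h. Dok1, a docking protein, rose by 0.83 at 12 h (adjusted p = 0.000238), and Flot1, a lipid raft protein, by 0.35 (0.00214). Sos1, which activates RAS, had probe sets that disagreed at 12 h, at -0.37 (0.00281) and 1.05 (0.000481), and a dim one at -0.69 was not called (0.755).

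Of 24 further genes of PI3K, AKT and mTOR signalling, 2 rose and 2 fell at 6 h and at 12 h, and none was called at 3 h. Pik3r4, a subunit of the class III lipid kinase, fell (log2 change -0.76 at 6 h, -0.67 at 12 h, adjusted p = 0.00534 and 0.00496). The atypical protein kinase C gene Prkci rose by 0.61 at 12 h (1e-06), while another of its probe sets stood at 0.46 and was not called (0.23). Eif4ebp1, a translation repressor that mTOR inactivates, rose by 0.31 (0.00073), with other probe sets at 0.24 (0.00271) and -0.19 (0.432). Sgk1, a kinase related to AKT, fell at 6 h (-0.43, adjusted p = 0.0392), a call lost in 9 alternatives, with an adjusted p of up to 0.15 (without DMSO replicate 2).

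Of 29 genes of GLUT4 vesicle traffic, 1 rose at 3 h, 4 rose and 3 fell at 6 h, and 5 rose and 6 fell at 12 h. Stxbp3, which binds the syntaxin at which GLUT4 vesicles fuse, rose by 0.34, 0.43 and 0.47 at 3, 6 and 12 h (adjusted p = 0.0131, 0.000376 and 4.24e-05). Its 3 h call was lost without DMSO replicate 1 (0.0857), 3 h replicate 1 (0.0729) or 3 h replicate 2 (0.0585). Stx16, a syntaxin of GLUT4 sorting, fell by 0.31 at 12 h (log2 change -0.31, 0.00633). Tbc1d4, the AKT substrate that holds GLUT4 vesicles back, had a log2 change of -0.79 at 12 h (adjusted p = 0.0425), with overlapping groups. The call was lost in 13 alternatives, with an adjusted p of up to 0.217 (without DMSO replicate 3). The probe sets of Sort1 and Rala disagreed in sign at 12 h: Sort1 at -0.55 (0.000317), 0.23 (0.282) and 0.59 (0.12), Rala at 0.47 (0.000252) and -0.80 (6.8e-05).

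Of 21 negative regulators of the pathway, 2 rose and 1 fell at 3 h, and 4 rose and 5 fell at 12 h. Trib3, a pseudokinase reported to bind AKT, rose by 0.78 at 3 h, 1.94 at 6 h and 2.53 at 12 h (adjusted p = 0.000736, 4.97e-09 and 1.26e-10). The phosphatase gene Ptpn2 rose by 0.39, 0.69 and 0.73 at these times (0.00339, 3.52e-06 and 3.06e-07). Ddit4, an inhibitor of mTOR, fell at these times by log2 changes of -0.85, -0.49 and -1.03 (adjusted p = 0.00448, 0.0292 and 3.89e-05). Its 6 h call was lost without DMSO replicate 1 (0.156) or 3 (0.105), or without 6 h replicate 1 (0.0874) or 2 (0.127). Pde3b was counted on this list, though it encodes the phosphodiesterase through which insulin restrains lipolysis, and so carries out an insulin effect. It fell by 0.56 at 6 h and 0.81 at 12 h (adjusted p = 0.00149 and 1.32e-05), and is among the 5 falls at 12 h.

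Of 20 FOXO genes and targets, 2 rose and 1 fell at 3 h, 3 rose and 7 fell at 6 h, and 3 rose and 8 fell at 12 h. Pck1, a gluconeogenic and glyceroneogenic enzyme, fell at 6 and 12 h (log2 changes -0.89 and -2.25, adjusted p = 0.00187 and 5.26e-08). Cited2, a transcriptional co-regulator, fell by 0.71 at 12 h (2.97e-06). The growth arrest gene Gadd45a rose by 1.11, 1.75 and 1.99 at 3, 6 and 12 h, and the coactivator gene Ppargc1a by 0.73, 0.98 and 1.14. The 3 h call of Ppargc1a was lost without the intensity trend (adjusted p = 0.0673). Its other tested probe sets stood at 0.37 to 0.61 at 3 h and were not called (adjusted p from 0.192 to 0.425). At 6 and 12 h they were called, apart from a 12 h change of 0.58 (adjusted p = 0.0516).

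Of 10 transcripts known to be raised by insulin in adipocytes or liver, 2 fell and 0 rose at 3 h, and 6 fell and 2 rose at both 6 h and 12 h. The list's median log2 change was -0.57 at 12 h, beside -0.01 over all 12136 genes. This list, like the others, was chosen with earlier results of these data known, so the contrast is not independent of them. The hexokinase gene Hk2 fell by 0.51, 0.77 and 0.90 at 3, 6 and 12 h (adjusted p = 0.0109, 6.46e-05 and 2.82e-06). Its 3 h call was lost without DMSO replicate 1 (0.076), 3 h replicate 1 (0.067) or 3 h replicate 2 (0.0716). The basal glucose transporter gene Slc2a1 fell by 0.52, 0.65 and 0.40 at these times (0.00339, 8.34e-05 and 0.00178). Gys1, glycogen synthase, fell by 0.87, Fasn, fatty acid synthase, by 0.79 and the immediate early gene Egr1 by 0.79 at 12 h (5.55e-06, 1.77e-05 and 0.000526). Another probe set of Gys1 stood at -0.53 at 12 h and was not called (adjusted p = 0.368). The genes named here all fell, and the 2 that rose at 12 h are not among them. The highest log2 change on the list was 0.32 at 12 h.

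**Figure D4:**
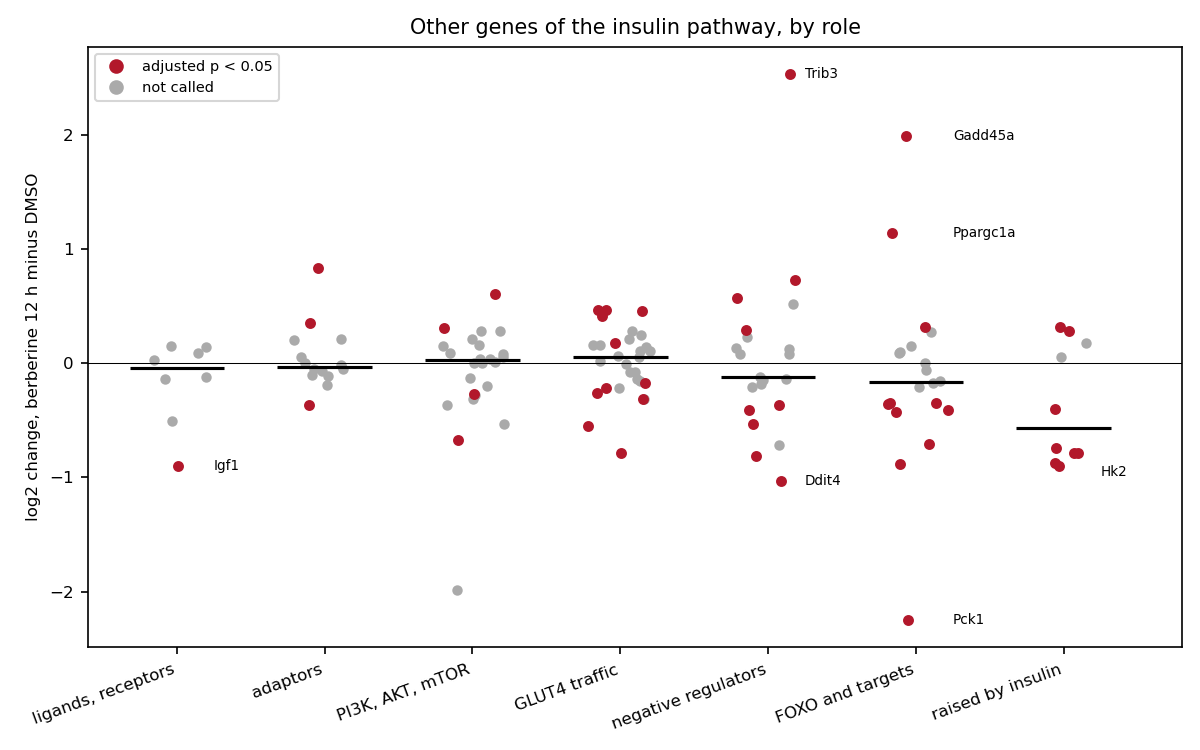
Log2 change at 12 h of berberine minus DMSO (y axis) of the 126 other pathway genes by role (x axis), 1 point per gene from its brightest tested probe set, red where the adjusted p was under 0.05, with the median of each role as a line. The median lay at -0.57 for transcripts known to be raised by insulin in adipocytes or liver, and between -0.17 and 0.05 for the other roles. Called genes with a change of 0.89 or more are named.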

How the data were processed

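RNA was labelled with biotin and hybridised to single-colour Affymetrix 3′ arrays, per the labels' protocols. The authors deposited log2 signals for 45101 probe sets, including 64 controls. The submitters' processing notes name MAS5, without a version. Each array had been scaled to a 2% trimmed mean of 500.004 (linear), which leaves in any bias that varies with brightness, and dim values are noisy. Scanner files were not analysed here.

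Of the probe sets, 25053 reached 5.77 (linear 54.6), the median of all values, on 3 or more arrays and were tested with limma 3.58.1 (R 4.3.3). The model had a mean for each group and 8 residual degrees of freedom, and eBayes used an intensity trend. Tests were two-sided, with Benjamini-Hochberg adjustment over the 25053, and an adjusted p under 0.05 was called. SE is limma's, and intervals are 95% intervals of the fit. Symbols came from the platform annotation (34741 probe sets matched RefSeq's gene table by Entrez identifier). Pathway genes were read from their brightest tested probe set.

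The 10 genes and the pathway lists were chosen with earlier results of these data known. The naming rule took, per list and contrast, up to 3 called genes with the largest change, with both values where probe sets disagreed in sign, and the 3 genes nearest in pattern to each of the 10 genes whose brightest tested probe set passed the F test. The fit was tested on simulated data. Alternatives changed the trend, normalization, filter, floor, probe set choice, samples fitted, replicate block and single replicates. Plots used matplotlib 3.10.9 under Python 3.11.15.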

Additional observations from a re-analysis of the deposited data

Results flagged for a closer look

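Differences between berberine times, tested with limma, drew attention because the change from DMSO at a later time then differed from that at an earlier one. Irs1 was lower at 6 h than at 3 h (log2 change -0.52, adjusted p = 0.0351), a call lost in 7 of 21 alternatives. It was also lower at 12 h than at 3 h (-0.85, adjusted p = 8.9e-05). Irs2 was lower at 12 h than at 3 h (-0.74, adjusted p = 0.00361). Pik3r1 was lower at 12 h than at 3 h on 2 probe sets, 1438682_at (-0.43, adjusted p = 0.00145) and 1425515_at (-0.50, adjusted p = 0.0475). The call of 1425515_at was lost in 11 of 19 alternatives. Akt2 was lower at 12 h than at 3 h on 1424480_s_at (-0.34, adjusted p = 0.00324), a call lost in 1 of 21 alternatives. The 12 h mean of Akt2 on 1455703_at lay under the threshold. With signals below the threshold set to it, that mean was at least 2.16-fold lower than at 3 h and at least 2.01-fold lower than at 6 h. The fit to the signals as deposited gave adjusted p = 0.0055 and 0.0261, the second call lost in 7 of 18 alternatives. Foxo1 was lower at 12 h than at 3 h on 1416981_at (-0.40, adjusted p = 0.0421), a call lost in 10 of 19 alternatives.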

How the results depend on the processing

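Arrays number 3 per group, which limits the precision, and probe sets near the threshold bound little. Of the 24 tested probe sets, the count called at 3 h was 0 in every alternative. At 6 h it was 5, and 1 without the intensity trend. At 12 h it was 9, and 8 without the trend. Leaving out 1 array gave 3 to 7 at 6 h, with 3 without 6 h replicate 3, and 7 to 11 at 12 h. For 12 h against 3 h the count was 7, with 4 when each gene was the mean of its probe sets and 5 to 8 with 1 array left out. For 6 h against 3 h it was 1, and 0 without the trend or with 1 of several arrays left out (0 to 1). For 12 h against 6 h it was 1, with 2 after quantile normalization, 2 with dim values raised to the threshold, and 0 without the trend, with gene means, with only the 2 groups fitted, or with 1 of several arrays left out (0 to 1). The F test called 9, 5 when each gene had 1 row, by brightest probe set or mean, and 7 to 11 with 1 array left out; fewer rows were tested there. Where not stated, the cause was not tested.

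Of the 126 pathway genes, 9 were called at 3 h, 2 without the trend and 7 to 12 with 1 array left out. At 6 h 41 were, 24 without the trend, 26 with gene means and 30 to 42 with 1 array left out. At 12 h 47 were, and 41 to 47 with 1 array left out. With gene means, Sort1 at 12 h turned to 0.09, and Rala to -0.02 at 6 h and -0.16 at 12 h, since their probe sets disagree in sign. Of 2820 recomputed changes of the 24 probe sets, 52 lost their call and 44 gained one, none of these with a change of sign, and 82 that were called in neither setting changed sign. Gene means were compared with each gene's brightest probe set alone.

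Whether replicate numbers pair the samples is not stated. Over 18 same-numbered pairs, deviations from group means correlated at -0.0896 to 0.051, and over differently numbered pairs at -0.0748 to 0.0748. Such a correlation, taken over all tested probe sets, cannot exclude a pairing that touches some of them. With a replicate block, 8 of 24 probe sets were called at 6 h, 12 at 12 h, 0 for 6 h against 3 h and 11 by the F test.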
